A study of Mus musculus with 28 samples.

Results

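The regions described here are the RBBP4 ChIP-seq peaks of control mouse fibroblasts and of fibroblasts depleted of the histone variant H3.3. Every peak of both deposited lists was taken, 3561 in control cells and 2919 in knockdown cells, 6480 of the 84314 peaks in the 8 deposited lists of the study. A peak that shared at least 1 bp with a peak of the other list was called shared, and the remaining peaks were called control-only or knockdown-only. The cells were NIH/3T3 Tet-On 3G fibroblasts, an immortalised mouse embryonic line that carries a doxycycline-dependent transactivator. Control cells were transduced with the construct pair GFP-Luciferase/OFP-Luciferase, and knockdown cells with OFP-H3.3A/GFP-H3.3B, aimed at both genes that encode H3.3. RBBP4 was precipitated with the same antibody from 1 library per condition, so no difference between the peak lists has a replicate check. The labels do not say whether the ChIP cells were a clone or a pool. RNA came from 2 control clones (LUC/LUC) and 3 knockdown clones (H3.3KD), for which the labels give culture with doxycycline, a treatment they do not give for the RBBP4 ChIP cells. Reference maps of RBBP4, HDAC1, HDAC2, CHD4, MBD2/3, MTA1, H3K4me3, H3K9ac and H3K27ac came from unmodified cells of the same line, with 1 library each. HA-tagged H3.3 was mapped in 2 replicates of arrested cells.

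RBBP4 is a histone-binding protein with a propeller of WD40 repeats that serves in several unrelated chromatin complexes. In NuRD it stands beside the deacetylases HDAC1 and HDAC2, the remodeller CHD4, and the MTA and MBD proteins. It is also a subunit of the Polycomb complex PRC2, of the SIN3 deacetylase, of the remodeller NURF, of the histone chaperone CAF-1 and of MuvB. MuvB is the core of the DREAM repressor in resting cells and joins the activator B-MYB, encoded by Mybl2, in dividing cells. It reaches promoters of mitotic genes through the cell cycle homology region (CHR), while E2F sites lead DREAM to genes of DNA replication. H3.3 is the H3 variant deposited outside replication at active promoters, enhancers and gene bodies.

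The knockdown clones differed in how far their H3.3 transcripts were lowered. H3f3a was at 128 and 143 FPKM (fragments per kilobase of transcript, scaled to library size) in control clones 1 and 2, and at 71.8, 35.6 and 5.05 FPKM in knockdown clones 1, 2 and 3. H3f3b was at 249 and 237 FPKM in the controls and at 144, 104 and 51.7 FPKM in the same knockdown clones. Both genes were lower in every knockdown clone than in either control, with clone 3 lowest. The limma adjusted p-values were 0.516 and 0.469, since the spread among the knockdown clones was wide. Rbbp4 itself was at 81.1 and 65.9 FPKM in the controls and at 55.9, 61.2 and 65.7 FPKM in the knockdown clones, a log2 difference of -0.26 ± 0.20 (SE, limma adjusted p = 0.624). Of 15 fibroblast markers, 13 reached an FPKM of at least 1 in every clone, and Fap was at 0 in all of them. Summed marker levels ranged from 6676 to 7453 FPKM in controls and from 8302 to 9905 in knockdown clones for fibroblasts, against at most 6.55 for epithelial and 1.64 for neural markers in any clone. Endothelial markers summed to 9.96 to 14.9 FPKM in controls and 4.82 to 13.7 in knockdown clones, and haematopoietic markers to 8.38 to 17.6 and 10.7 to 21.3. Skeletal muscle markers summed to 46.1 to 56.0 FPKM in controls and 26.6 to 45.6 in knockdown clones, with Myod1, the muscle-defining factor, at 0 in all clones.

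The promoters printed next are examples of genes with RBBP4 peaks from the groups described below, cell division and cell guidance. Each run holds the 250 bases before the annotated start of the gene from the RefSeq promoter table (build GRCm38.p6), written 5′ to 3′ on the gene's strand. Capitals mark the letters TTTGAA or TTCGAA (CHR), TTTCCCGC, TTTGGCGC, TTTCGCGC or TTTGCCGC (E2F), and CCAAT, searched on both strands. Kif2c (chr4:117178773-117179022, minus strand) and Cdk1 (chr10:69352913-69353162, minus strand) had shared peaks. Plk1 (chr7:122159185-122159434, plus strand), Ccnb2 (chr9:70421555-70421804, minus strand) and Gins3 (chr8:95633309-95633558, plus strand) had knockdown-only peaks. The guidance genes Unc5b (chr10:60831582-60831831, minus strand) and Efnb2 (chr8:8661243-8661492, minus strand) had shared peaks that also held MTA1. Genes were ranked by their better rank in either peak list. They had to match the promoter table, and guidance genes needed a peak within 1 kb of a locus end in both lists. Kif2c, Plk1, Unc5b and Efnb2 were taken as the highest-ranked eligible genes of their groups. The guidance genes Sema3f and Slit2 had higher control scores, 2217 and 1981, and were not printed. Cdk1 and Ccnb2 were the highest-ranked with both CHR and CCAAT letters, and Gins3 the highest-ranked with E2F letters. For Cdk1, Ccnb2 and Gins3 the presence of those letters was thus fixed by the choice.
Kif2c: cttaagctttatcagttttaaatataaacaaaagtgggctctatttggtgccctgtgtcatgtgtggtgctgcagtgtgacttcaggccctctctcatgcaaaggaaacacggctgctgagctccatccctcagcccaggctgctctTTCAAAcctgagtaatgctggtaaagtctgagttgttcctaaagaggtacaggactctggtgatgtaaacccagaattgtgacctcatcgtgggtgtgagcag
Cdk1: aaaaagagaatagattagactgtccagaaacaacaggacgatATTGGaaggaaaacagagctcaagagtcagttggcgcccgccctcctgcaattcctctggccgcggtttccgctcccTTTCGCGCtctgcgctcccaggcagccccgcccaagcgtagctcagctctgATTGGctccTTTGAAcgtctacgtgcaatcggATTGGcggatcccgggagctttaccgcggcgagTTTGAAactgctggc
Plk1: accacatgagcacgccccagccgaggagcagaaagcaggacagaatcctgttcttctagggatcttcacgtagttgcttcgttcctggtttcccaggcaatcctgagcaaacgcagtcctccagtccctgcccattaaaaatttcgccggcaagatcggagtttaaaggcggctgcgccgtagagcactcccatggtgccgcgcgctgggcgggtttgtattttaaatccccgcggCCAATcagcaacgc
Ccnb2: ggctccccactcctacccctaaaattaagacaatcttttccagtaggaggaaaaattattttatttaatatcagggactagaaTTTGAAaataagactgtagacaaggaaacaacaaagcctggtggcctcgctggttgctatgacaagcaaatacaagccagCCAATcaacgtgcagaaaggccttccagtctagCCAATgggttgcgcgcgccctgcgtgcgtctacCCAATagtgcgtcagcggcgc
Gins3: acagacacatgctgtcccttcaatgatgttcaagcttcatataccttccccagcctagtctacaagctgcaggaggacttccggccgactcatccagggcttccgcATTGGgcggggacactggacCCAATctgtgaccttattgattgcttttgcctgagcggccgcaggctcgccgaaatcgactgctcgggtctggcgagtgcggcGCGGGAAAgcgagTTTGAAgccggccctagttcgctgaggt
Unc5b: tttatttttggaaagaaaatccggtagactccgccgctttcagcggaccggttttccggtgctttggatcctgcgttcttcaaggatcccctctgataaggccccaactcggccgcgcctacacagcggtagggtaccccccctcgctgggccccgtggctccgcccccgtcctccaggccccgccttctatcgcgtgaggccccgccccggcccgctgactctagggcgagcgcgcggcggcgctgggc
Efnb2: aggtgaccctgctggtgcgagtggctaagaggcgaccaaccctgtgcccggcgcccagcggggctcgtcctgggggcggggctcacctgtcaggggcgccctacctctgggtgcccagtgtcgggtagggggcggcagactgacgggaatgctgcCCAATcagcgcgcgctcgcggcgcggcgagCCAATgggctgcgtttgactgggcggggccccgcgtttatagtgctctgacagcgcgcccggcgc

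The Cdk1 promoter held a CHR 71 and 15 bases before the start, an E2F match 131 bases before it and 3 CCAAT boxes. Kif2c held a CHR 103 bases before the start and no CCAAT box, and Plk1 held a single CCAAT box and no CHR. Ccnb2 held a CHR 167 bases before the start and 3 CCAAT boxes, at 87, 54 and 21 bases. Gins3 held an E2F match 41 bases and a CHR 28 bases before the start. Neither the CHR nor the E2F letters occurred in the Unc5b and Efnb2 windows, while Efnb2 held 2 CCAAT boxes. These 2 windows were 66.8% and 72% G or C, against 47.6% for Kif2c and Ccnb2, 56.4% for Cdk1 and Plk1 and 58% for Gins3. In the mm9 coordinates of the peak lists, the knockdown peaks of Cdk1, Plk1, Ccnb2 and Gins3 were centred 38 bp after, 3.5 bp before, 69 bp after and 23.5 bp after the locus start, so they lay on these promoters. Of the G2/M and mitosis genes with a peak, 29 of 35 matched the promoter table, and 10 of the 29 (34.5%) held a CHR and 20 (69.0%) a CCAAT box. Over all 37 matched genes of that list, with or without a peak, the shares were 32.4% and 75.7%. Over all 27025 promoters of the table the shares were 17.5% and 34.5%, and over the matched expressed genes, 78.6% of all expressed genes, 12.4% and 38.2%. Of 16 matched replication and S phase genes with a peak, 6 (37.5%) held an E2F match, against 9 of 36 (25.0%) over all matched genes of the list, 3.75% of the matched expressed genes and 1.92% of all promoters. Of 17 matched axon guidance genes with a peak, 1 held a CHR, none an E2F match and 5 (29.4%) a CCAAT box. Fewer than 80% of the shared and of the control-only genes matched the table, so a comparison of whole classes is void. A match of letters is a description and not a bound site.

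RBBP4 occupied only partly the same places in the lists of the 2 conditions. Of the control peaks, 1206 (33.9%, exact binomial 95% interval 32.3 to 35.4%) met a knockdown peak, and of the knockdown peaks 1378 (47.2%, 45.4 to 49.0%) met a control peak. Merged into 5031 loci, 1135 held peaks of both lists, 2355 of the control list alone and 1541 of the knockdown list alone. Intervals here and below cover counting error only. The overlap rose with the authors' score, which is -10 log10 of the peak caller's p-value and starts at 50 in both lists. Among control peaks scored 50 to 60, 11.5% were shared, and among those scored 200 or more, 86.0%. Among knockdown peaks the same classes gave 24.3% and 92.9%. The knockdown list had the larger shared portion in each of the 5 score classes, as the plot of overlap by score shows. Few unshared peaks had a near neighbour in the other list: 14.6% of control-only and 13.5% of knockdown-only peaks lay within 500 bp of a peak of the other list.

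**Figure D1:**
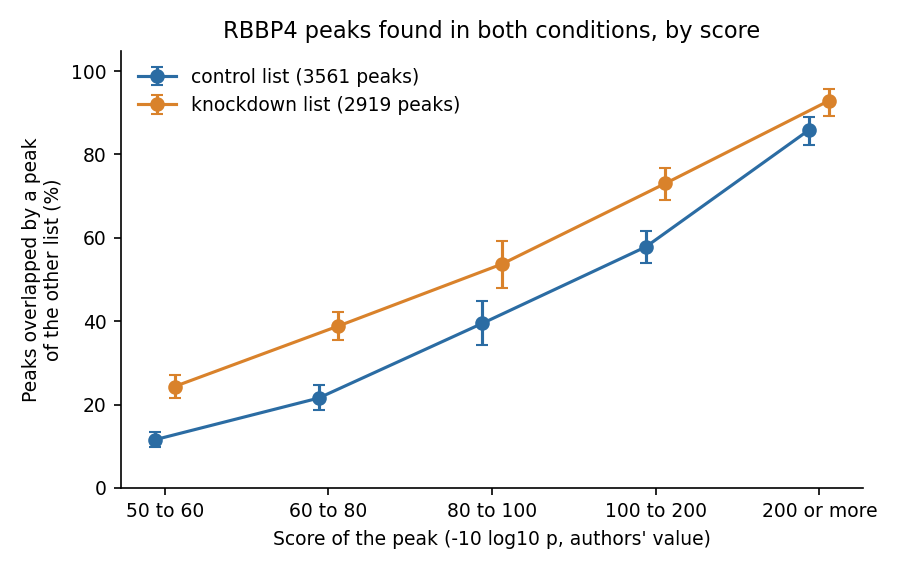
Percentage of RBBP4 peaks overlapped by a peak of the other list (vertical axis) in 5 classes of the authors' score (horizontal axis), for the control list (blue) and the knockdown list (orange); bars are exact 95% binomial intervals. The share climbs from 11.5% to 86.0% in the control list and from 24.3% to 92.9% in the knockdown list.

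Control peaks were also wider. The control list covered 1147 kb and the knockdown list 751 kb, with 370 kb in common. Among 892 peaks that paired one to one, the median width was 329 bp in control and 239.5 bp in knockdown, the control peak was wider in 72.4% of pairs, and the centres lay a median of 56.5 bp apart. A further 208 control peaks were met by at least 2 knockdown peaks, while 69 knockdown peaks were met by at least 2 control peaks. Sequencing depth of the RBBP4 libraries is unknown from the lists, and its part in width, score and number of peaks was not tested. Shared peaks had median scores of 128 in control and 95.9 in knockdown, against 59.4 for control-only and 61.2 for knockdown-only peaks. The highest control-only score was 771 and the highest knockdown-only score 348, while shared peaks reached 3151 and 2635.

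Shared peaks lay on active promoters, and unshared peaks less uniformly so. H3K4me3, the mark of active promoters, was present at 92.8% of shared control peaks and 93.1% of shared knockdown peaks, at 63.9% of control-only peaks and at 76.8% of knockdown-only peaks. H3K9ac followed with 86.5%, 86.5%, 53.7% and 69.4% in the same order, and H3K27ac with 45.6%, 40.7%, 23.7% and 33.5%. The RBBP4 library of unmodified cells had a peak at 91.3% and 92.1% of the shared peaks, at 55.4% of control-only peaks (53.3 to 57.4%) and at 69.4% of knockdown-only peaks (67.1 to 71.7%). H3.3 peaks of arrested cells covered 79.2%, 79.8%, 51.6% and 64.8%, and HDAC2 peaks 73.2%, 74.4%, 37.8% and 50.0%. Thus knockdown-only peaks overlapped every one of these features more often than control-only peaks, with intervals that do not meet. Much of the gap to shared peaks went with score. At a score of at least 100, H3K4me3 was present at 92.7% of shared control, 96.4% of control-only, 91.9% of shared knockdown and 94.7% of knockdown-only peaks. The unmodified RBBP4 library then held 93.1%, 91.8%, 93.0% and 88.8%, so for both features knockdown-only peaks no longer lay above control-only peaks. H3K27ac turned round too, with 40.2% of knockdown-only and 43.8% of control-only peaks. Knockdown-only peaks still lay above for H3K9ac (88.8% against 83.4%), H3.3 (84.0% against 77.9%) and HDAC2 (74.0% against 65.9%), with intervals that overlap.

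**Figure D2:**
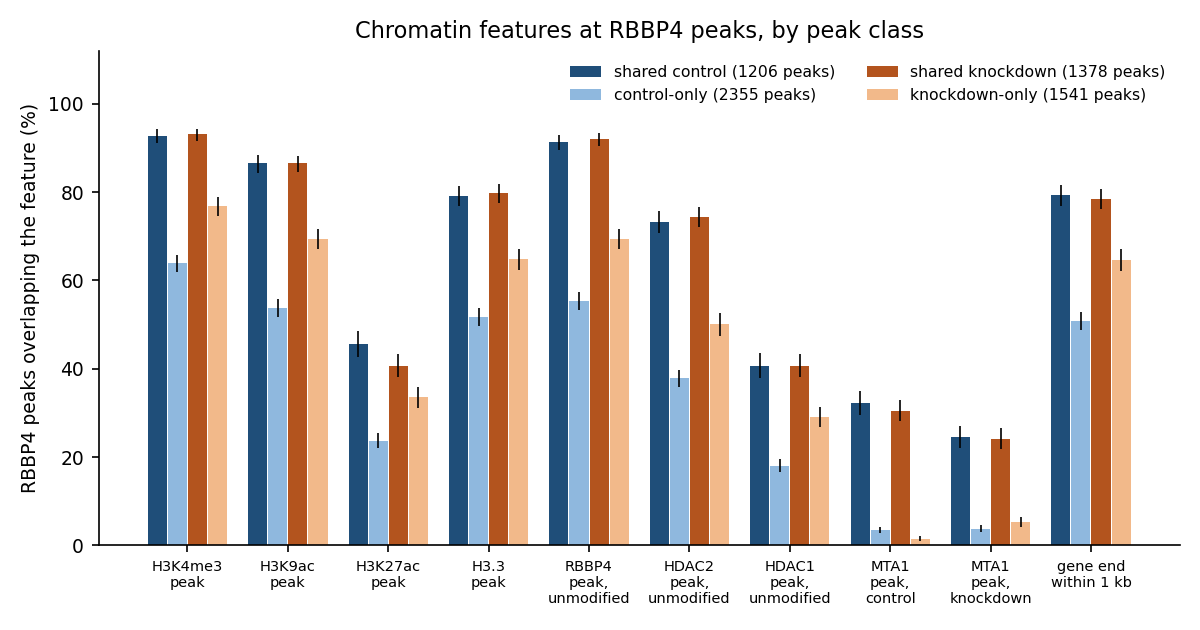
Percentage of RBBP4 peaks of each class (shared and unshared, control in blues and knockdown in oranges) that overlap a histone mark, H3.3, a NuRD subunit or a gene end; bars are exact 95% binomial intervals. Control MTA1 peaks cover 32.3% of shared control peaks and 3.40% of control-only peaks.

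MTA1, the NuRD subunit mapped in the same 2 conditions, followed another course. Of the shared control peaks 32.3% overlapped a control MTA1 peak, and of the shared knockdown peaks 24.2% a knockdown MTA1 peak. The unshared classes stood at 3.40% and 5.26%. The difference persisted at a score of at least 100, where the shared classes gave 44.9% and 32.7% and the unshared classes 12.4% and 11.2%. Among shared control peaks scored 200 or more, 66.6% held MTA1, against 10.1% of those scored 50 to 60. Where a control peak was shared, the knockdown score was the higher one in 39.8% of cases. That share was 32.4% (28.3 to 36.6%) for peaks with an MTA1 peak of either condition and 45.3% (41.5 to 49.0%) for peaks without one. With the control score at 100 or more it was 21.9% and 22.2%, and below 100 it was 73.8% and 67.5%. The gap over all shared peaks was thus absent at high scores and turned round at low ones, and peaks with MTA1 had the higher control scores, with a median of 247 against 98.1.

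Most genes with an RBBP4 peak were expressed. A peak lay within 1 kb of either end of 2730 of the 23951 genes in the expression tables (11.4%). Shared peaks accounted for 945 genes (3.95%), control-only peaks for 811 (3.39%), knockdown-only peaks for 876 (3.66%), and 98 more had separate peaks of both lists. Of the 11555 genes with a mean of at least 1 FPKM in the control clones, 21.7% had a peak, with 7.63% in the shared, 6.24% in the control-only and 7.03% in the knockdown-only class. Median control levels were 13.3, 11.5 and 14.5 FPKM in the 3 classes, against 0.707 over all genes. Start and end of a locus could be told apart for the 16745 symbols whose strand RefSeq gives, and there 701 shared control peaks lay at a start and 10 at a 3′ end alone.

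The shared peaks of highest control score at gene ends had lower knockdown scores. They were ranked by control score, a choice that favours this direction. Of all shared control peaks scored 100 or more, 22.0% met a higher knockdown score, against 68.9% of those scored lower. Pmp22, a myelin and growth arrest membrane protein, Zfp800, a zinc finger gene, and the ribosomal RNA unit Rn45s tied at a control score of 3100. Their highest knockdown scores were 736, 1986 and 2635. Rn45s is a multicopy repeat, and its peak height depends on how repeats were mapped. Cnnm3 had 2770 in control and 1295 in knockdown, and the polarity gene Pard3 had 2727 and 1272. Foxc2, a forkhead factor of mesenchyme and vessels, had 2338 and 826, and Atoh8, a basic helix-loop-helix factor, had 2333 and 874. The repulsive cues Sema3f and Slit2 had 2217 and 1981 in control and 571 and 202 at the knockdown peaks they met. Each of these 9 control peaks overlapped a control MTA1 peak and H3K4me3. The highest control score of all, 3151, belonged to a peak inside Hivep3, and it fell to 807 in knockdown. A few high-scoring shared peaks had no H3K4me3 and lay outside genes. Among them were chr2:98506382-98507534, with scores of 2340 and 2578, and chr9:35112783-35113189, with 1186 and 1189. Both held MTA1 peaks of both conditions. No peak sequence was read, so the part of repeats in such peaks was not tested. Of 87 shared control peaks without H3K4me3, 50 held MTA1 peaks of both conditions.

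Control-only peaks of high score marked Tgif2, a repressor of TGF-beta signalling, at 771, Kctd15, an inhibitor of neural crest formation, at 714, Sertad4 at 520, and Sirpa, a surface receptor that restrains phagocytes, at 509. Ctif, a translation factor, and Kif13a, a kinesin that also had a shared peak, followed at 482 and 473. Gpc1, a heparan sulfate proteoglycan, was at 409, and Nbl1, a BMP antagonist, at 384. The homeobox gene Dlx1 had a control-only peak at 420 and a shared one beside it. Knockdown-only peaks of high score marked Sfi1, a centrosome gene, at 348, Arhgap10 at 266, Ccng2, an atypical cyclin, at 255, and Ets2, a MAPK-responsive factor, at 249. Tob2, an antiproliferative gene, Cdc42se2, Pitpnc1 and the matrix proteoglycan Bgn lay between 229 and 235, and the glycolytic gene Pgk1 and the mitotic kinase Plk1 at 208 and 206. The Bgn peak had no H3K4me3 and no peak of the unmodified RBBP4 library. The Sfi1 peak was 3336 bp wide, against a median of 170 bp for its class. It had no H3K4me3 and held a control MTA1 peak, and the part of repeats in it was not tested.

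Genes of G2/M and mitosis formed the group with the fullest RBBP4 coverage among the 40 gene lists examined. A peak was found at 35 of 44 listed genes (79.5%), against 11.4% of all genes, with 18 shared, 12 knockdown-only, 2 control-only and 3 with separate peaks of both lists. The control list reached 23 of them and the knockdown list 33. Where both lists had a peak, the knockdown score was the higher one for 19 of 21 genes, with medians of 100.8 in control and 155.9 in knockdown. Over all 1030 genes with peaks in both lists the knockdown score was higher for 36.3%, with medians of 127.3 and 105.3. Kif2c, a microtubule depolymerase of the centromere, had 199 and 503. Ttk, a spindle checkpoint kinase, had 128 and 344, and Cdk1, the kinase that drives entry into mitosis, 69.2 and 200. Aurkb, of the chromosomal passenger complex, had 161 and 274, and Plk4, which starts centriole duplication, 52.7 and 204. The exceptions were Kif20a, a kinesin of cytokinesis, with 132.4 and 105.4, and Nusap1, with 88.2 and 62.5. The 12 genes with a knockdown peak alone were Plk1, Kif4, Ccnb2, Birc5, Nuf2, Cenpf, Racgap1, Kif23, Ube2c, Incenp, Bub1b and Mad2l1, with scores from 206 down to 55.5. Aurka and Kif11 had a control peak alone.

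The direction at cell cycle genes held at high and low control scores alike. Of 20 shared control peaks at an end of a mitotic or replication gene, 18 met a higher knockdown score, 10 of 11 at a control score of 100 or more and 8 of 9 below it. Over all shared control peaks the shares were 22.0% at 100 or more and 68.9% below. With only the 2500 highest-scoring peaks of each list kept, 17 of 19 G2/M genes had the higher knockdown score, and with a score of at least 100 in both lists 10 of 11 did. No MTA1 peak of either condition lay at any of the 35 genes. By comparison, control MTA1 peaks were found at 325 of the 2730 genes with an RBBP4 peak (11.9%), and at 34.8% of the 841 genes with a control score of at least 100, of which 12 were G2/M genes. Unmodified RBBP4 peaks and H3K4me3 were present at all 35.

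**Figure D3:**
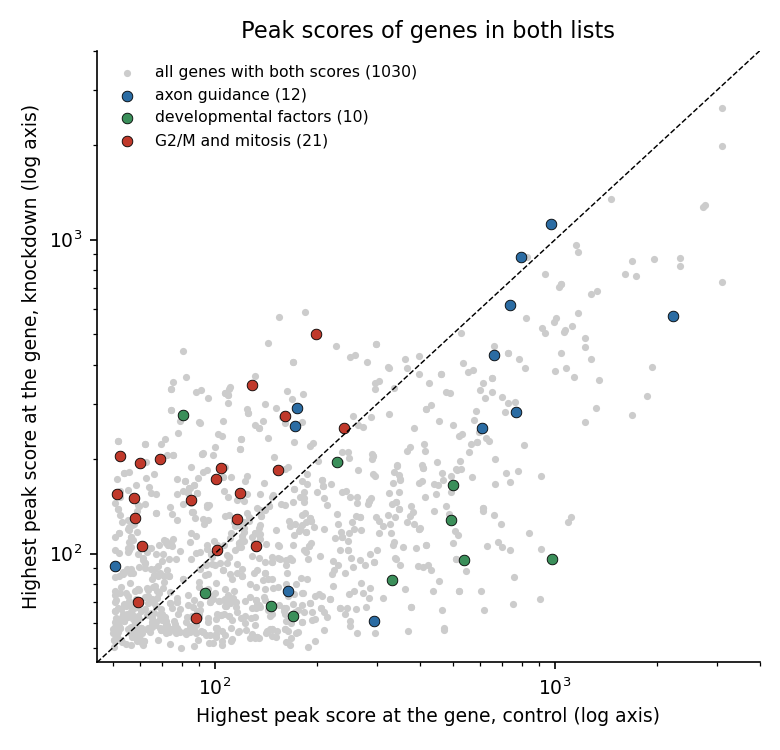
Highest RBBP4 peak score at each gene in the control list (horizontal, log axis) and the knockdown list (vertical, log axis) for the 1030 genes with peaks in both; the dashed line marks equal scores. G2/M genes (red) lie above the line in 19 of 21 cases, developmental factors (green) in 1 of 10 and axon guidance genes (blue) in 5 of 12.

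The sequential ChIP, in which tagged H3.3 was precipitated through FLAG and then RBBP4, has 6 peaks, and each overlapped a shared RBBP4 peak at a gene of cell division or genome upkeep. Kif2c and Aurkb were among them. At Fam64a, a mitotic regulator, the control score was 115 and the knockdown score 589. At Cdc25c, the phosphatase that activates Cdk1, they were 58.0 and 150, at Mcph1, a condensation and damage response gene, 169 and 310, and at the divergent pair H2afx and Dpagt1, 119 and 231. The knockdown score was higher at all 6 sites, against 39.8% of all shared control peaks. Kif2c, Aurkb and Cdc25c are also members of the G2/M list, so these sites repeat part of the count given above. The sequential ChIP was made in cells that carried an HA/FLAG-H3.3 construct and grew with doxycycline, and its sites were not used to form the classes.

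Replication and S phase genes were found mainly in the knockdown list. Of 45 genes 19 had a peak (42.2%), of which 12 were knockdown-only, 5 control-only and 2 shared. The 12 were the helicase subunits Mcm4, Mcm5 and Mcm6, the loading and firing factors Mcm10, Cdt1, Cdc45, Gins3 and Orc1, the polymerase and clamp loader genes Pole and Rfc1, Ccne1 and E2f1. Gins3 at 131 and Mcm5 at 123 had the highest scores, and the other 10 were between 54.4 and 85.7, near the lower limit of the list. Rrm2, the small subunit of ribonucleotide reductase, was shared, with 91.1 in control and 331 in knockdown, and so was E2f3, an activating E2F, with 78.1 and 64.4. The control-only members were Orc2 at 115, Dut at 108, Cdc6, Ccne2 and E2f2. With a score of at least 100 required, 2 genes remained in the control list and 3 in the knockdown list, so the count of 12 rests on low-scoring peaks.

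Some genes for the partners of RBBP4 had RBBP4 peaks themselves, beside 11.4% of all genes and 21.7% of expressed genes. Of 27 genes of PRC2, SIN3, NURF, MuvB and the DREAM proteins, 10 had a peak (37.0%). The knockdown score was higher for 5 of 6 genes with peaks in both lists, against 36.3% over all such genes. Mybl2 had 181 in control and 323 in knockdown, E2f5, a repressive E2F, 138 and 264, and Tfdp1, the E2F dimer partner, 123 and 170. The Polycomb genes Ezh2, Suz12 and Mtf2 and the CHR-binding MuvB gene Lin54 had knockdown-only peaks. Of 15 NuRD genes only Rbbp4 had a peak (6.67%, below both shares), at 417 in control and 106 in knockdown. Of 17 genes for H3.3 and H3 chaperones 5 had one (29.4%). Chaf1a, of CAF-1, was shared with 95.3 and 62.3, Hira and Npm1 were knockdown-only at 67.7 and 57.2, Daxx was control-only at 59.8, and Asf1a had separate peaks at 61.7 and 52.6. Neither H3f3a nor H3f3b had one.

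Axon guidance genes and developmental regulators with a peak were mostly in the shared class. Neither group had a knockdown-only peak, a class that held 3.66% of all genes and 7.03% of expressed genes. At these shares few members would fall in it, so the absence is not read as a trait of these groups. Of 38 guidance genes, which encode cues and receptors that steer migrating cells and axons, 18 had a peak (47.4%), 13 shared and 5 control-only. The knockdown score was the higher one for 5 of 12, a share close to the 36.3% of all genes with peaks in both lists. Unc5b, a netrin receptor, had 971 in control and 1124 in knockdown, and Efnb2, an ephrin, 792 and 879. Plxna2, a semaphorin receptor, had 766 and 283, and Slit3 609 and 251. Control MTA1 peaks lay at 10 of the 18 and knockdown MTA1 peaks at 5. Of 100 developmental transcription factors of other lineages 14 had a peak (14.0%), near the 11.4% of all genes. Most of the 100 were not expressed. Of the 18 that reached a mean of 1 FPKM over all clones 13 had a peak, against 2527 of 11728 over all genes. Of the 14 with a peak, 10 were shared, 4 control-only and none knockdown-only, and the knockdown score was higher for 1 of 10. Dlx1 went from 539 to 95.6, Irx2 from 502 to 165 and Irx1 from 495 to 128. Tbx18, with 80.3 and 277, was the exception. Control medians were 636 for guidance genes and 279 for developmental factors, against 100.8 for G2/M genes.

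**Figure D4:**
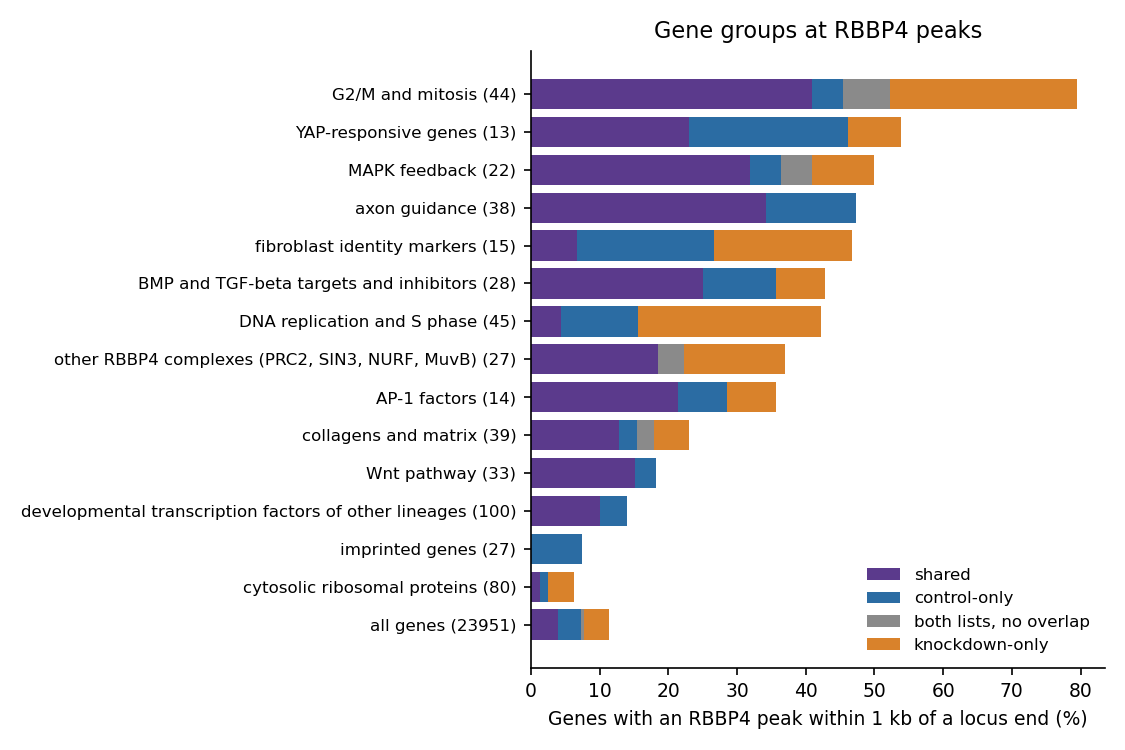
Percentage of each gene list (number of genes in parentheses) with an RBBP4 peak within 1 kb of a locus end, divided into shared, control-only, separate peaks of both lists and knockdown-only, with all genes at the bottom. G2/M genes reach 79.5% and all genes 11.4%. Orange knockdown-only segments are absent from the axon guidance, Wnt, developmental factor and imprinted gene bars and make up 3.66% of all genes. At that share few members of such lists would fall in the class.

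The direction of the scores varied among the other groups. Beside the counts below stand 11.4% of all genes and 21.7% of expressed genes with a peak. Among all genes with peaks in both lists, 36.3% had the higher knockdown score. Of 33 Wnt pathway genes 6 had a peak (18.2%), 5 shared and 1 control-only. All 5 scored lower in knockdown, among them the receptor gene Fzd2 with 1733 and 767 and the antagonist Dkk2 with 1687 and 277. Of 28 BMP and TGF-beta genes 12 had a peak (42.9%). The knockdown score was higher for 1 of 7 with peaks in both lists, and Smad6, an inhibitory SMAD, had 1112 and 131. MAPK feedback genes had 11 of 22 (50.0%), with the higher knockdown score for 3 of 8. The receptor tyrosine kinase inhibitor Spry1 was at 909 and 176 and the phosphatase Dusp7 at 490 and 325. Amino acid stress genes had 11 of 38 (28.9%), with the higher knockdown score for 2 of 6. Vegfa was at 227 and 460 and the glycyl-tRNA synthetase Gars at 398 and 374. AP-1 genes had 5 of 14 (35.7%), with the higher knockdown score for 1 of 3, and Jun had 311 and 72.0. Collagen and matrix genes had 9 of 39 (23.1%), with the higher knockdown score for 1 of 5. The divergent pair Col4a1 and Col4a2 was at 399 and 119 and Lamb1 at 628 and 233. Clustered histone genes had 14 of 64 (21.9%), and the knockdown score was higher for 5 of 6 with peaks in both lists, with medians of 81.6 and 117. Hist1h2af and Hist1h3g shared a peak with 107 and 324, and Hist1h1d, at 398 and 168, was the exception. Near-identical histone copies can share reads.

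Metabolic and structural groups ranged from below to above the 11.4% of all genes with a peak. Most of their members reached a mean of 1 FPKM over all clones, and among expressed genes 21.7% had a peak and 7.03% were knockdown-only. Ribosomal protein genes had 5 of 80 (6.25%), 3 of them knockdown-only, and respiratory chain genes 7 of 72 (9.72%), 5 of them knockdown-only. Glycolysis genes had 6 of 21 (28.6%), 4 of them knockdown-only and 2 control-only. Cytoskeletal genes had 10 of 38 (26.3%), with Actb, Vim, Myh9, Zyx, Tuba1b and Cfl1 knockdown-only. No gene on the epithelial, endothelial, haematopoietic, neural and skeletal muscle marker lists had a peak.

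No gene at an RBBP4 peak passed the adjusted RNA test, and the median differences of the classes were small. The limma test on log2(FPKM + 1), adjusted over 11728 genes, called 4 genes in all (0.0341%) and none of the 2527 tested genes with a peak. It did not call the depleted H3f3a and H3f3b either, with log2 differences of -2.44 and -1.39. A lack of calls among these clones therefore does not show that RNA was unchanged. Of the 2527 genes with a peak, 243 had an unadjusted limma p under 0.05, 63 higher and 180 lower. Over all 11728 genes tested, 1150 did, 410 higher and 740 lower, so low p-values were about as frequent without regard to peaks. Median log2 differences were -0.19 for genes at shared peaks, -0.12 at control-only peaks and -0.14 at knockdown-only peaks, against -0.10 over all genes tested. All 3 knockdown clones lay below both controls for 25.1%, 24.1% and 24.2% of the genes in these classes, near the 21.2% of all genes. They lay above both controls for 6.89%, 9.90% and 9.98%, against 11.4%. Knockdown clone 1 was the lowest in each class, at -0.31, -0.13 and -0.27, as the plot by clone shows. Without it the medians were -0.12, -0.12 and -0.05, with -0.08 over all genes, and the knockdown-only class was then not below the rest.

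**Figure D5:**
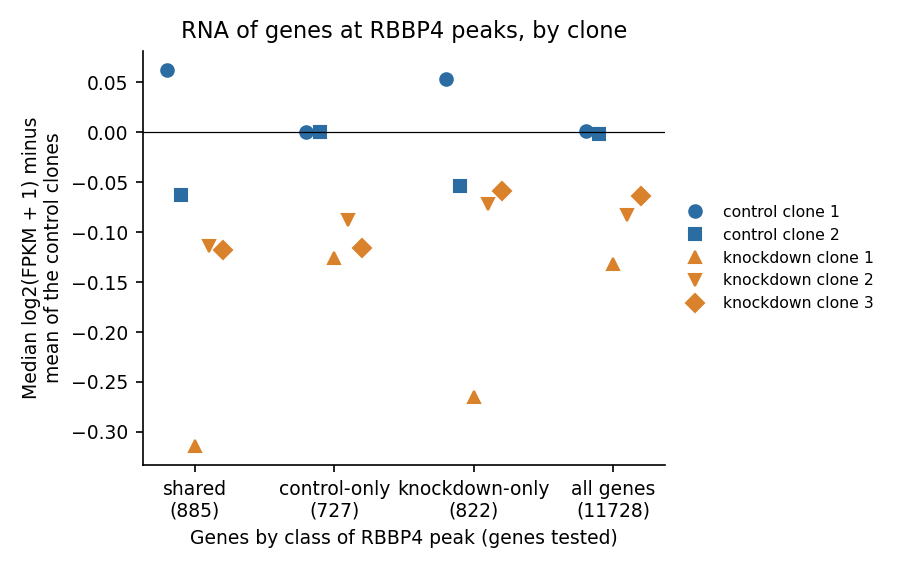
Median difference of log2(FPKM + 1) from the mean of the control clones (vertical axis), for each clone and for genes at shared, control-only and knockdown-only RBBP4 peaks and all genes tested (numbers of genes in parentheses). Every knockdown clone lies below 0 in each class, and knockdown clone 1 is lowest, at -0.31 for shared genes.

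No cell cycle gene with a peak passed the test, and the lower values of G2/M genes lay mainly in knockdown clone 1. Of the 35 G2/M genes 33 had a negative log2 difference, with a median of -0.28, and of the 19 replication genes 17, with a median of -0.86, against 59.9% negative over all genes tested. Clone 1 lay below both controls for all 35 G2/M genes, clone 2 for 2 and clone 3 for 10. For the 19 replication genes the counts were 19, 10 and 11. Over all genes tested the shares below both controls were 49.3%, 42% and 41.4% for clones 1, 2 and 3. Both lists as a whole had medians of -0.29 and -0.74, so the members with a peak did not stand apart. Cdk1 was at 68.7 and 38.1 FPKM in the controls and at 16.3, 47.3 and 41.7 FPKM in the knockdown clones, and the groups overlapped. Kif2c was at 38.8 and 26.7 FPKM in the controls and at 14.0, 36.4 and 27.2 FPKM in the knockdown clones. Mcm5 was at 98.3 and 50.2 FPKM in the controls and at 10.9, 34.7 and 43.8 FPKM in the knockdown clones, all below both controls (log2 difference -1.42 ± 0.65 SE, limma unadjusted p = 0.0770). Clone 1 was lowest for each of the 3 genes. Among the knockdown clones it also kept the most H3f3a and H3f3b RNA, at 71.8 and 144 FPKM. Clone 3 had the least, at 5.05 and 51.7 FPKM. A relation between cell cycle RNA and the depth of H3.3 depletion was not tested. Fewer dividing cells and less RNA per cell cannot be told apart in bulk RNA, nor was the cell cycle state of the ChIP cells given.

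Single genes at peaks differed evenly between the clones without passing the adjusted test. At shared peaks, Brinp1, a brake on the cell cycle, was at 8.14 and 6.49 FPKM in the controls and at 1.97, 2.05 and 1.97 FPKM in the knockdown clones, a log2 difference of -1.46 ± 0.19 (limma adjusted p = 0.248). Its peak scored 267 in control and 95.3 in knockdown. The activin receptor gene Acvr2b was at 5.26 and 5.73 FPKM against 1.68, 1.65 and 1.98 FPKM (-1.23 ± 0.19, limma adjusted p = 0.307), with peak scores of 587 and 284. The corepressor gene Tle1 was at 33.3 and 32.5 FPKM against 14.4, 18.1 and 18.5 FPKM. In these 3 genes the knockdown clones lay below both controls and the peak score was lower as well. Nacc2 and Zcrb1 went the other way in RNA, with 6.61 and 6.41 against 10.3, 11.3 and 13.7 FPKM for Nacc2, while their scores were lower in knockdown, 439 and 76.0 for Nacc2. At knockdown-only peaks, Setd7, a lysine methyltransferase, was at 10.2 and 8.86 FPKM in the controls and at 26.3, 26.9 and 30.1 FPKM in the knockdown clones (1.45 ± 0.17, limma adjusted p = 0.219), with a peak score of 60.4. Pam, a peptide-amidating enzyme, was at 41.9 and 38.5 FPKM against 14.7, 15.8 and 17.2 FPKM (-1.29 ± 0.17, limma adjusted p = 0.280), with a score of 66.6. At control-only peaks, Ly6e, a lymphocyte antigen family member, was at 31.3 and 68.7 FPKM against 212, 173 and 148 FPKM, and Slc20a1, a phosphate transporter, at 31.7 and 27.3 FPKM against 6.45, 12.5 and 10.1 FPKM. Genes of the control-only and of the knockdown-only class were thus found on both sides.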

How the data were processed

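The deposited RBBP4, MTA1 and histone mark peak lists give position, name and a score that the authors' caller made as -10 log10 of p. The submitters' processing notes name build mm9 and the tools MACS2, Cuffdiff, Cufflinks, TopHat, bedtools and Bowtie, without versions or roles. The sequential ChIP table gives, per the file headers, -log10 p and fold enrichment over the local background (MACS 2.1.1.20160309) as the authors deposited them; of these only peak positions were used. The deposited peak lists score each peak from 50 upward, and input handling is not given in the sources used here. RNA tables hold FPKM as the authors deposited them, per the file headers. The deposited coverage table gives the fraction of each region covered by each unmodified library's peaks, and the deposited level table log2(RPKM + 1), which was used only for description.

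Peaks were compared by overlap of at least 1 bp, and genes were linked where a locus end lay within 1 kb. The overlap code was checked against bedtools and tested on simulated data. Shares carry exact 95% binomial intervals. RNA was tested with limma 3.58.1 in R 4.3.3, two-sided, on log2(FPKM + 1) where the mean over all clones reached 1 FPKM, and p-values were adjusted by Benjamini-Hochberg; fold changes of low genes are understated on that scale. Clones are the replicates. Genes named are those at the 10 highest-scoring peaks of each class, the 3 highest-ranked members of each gene list, all NuRD and chaperone members with a peak, and the 5 of smallest p per class and direction; other members of the lists described were named after their values were seen. The members and gene lists were chosen with earlier results of these data known, so no count here is independent support for them. With 1 library per condition no p-value was made from peaks. Promoter sequences are RefSeq entries of GRCm38.p6, matched by symbol or by a synonym of 1 gene alone, with the most upstream start taken. The peak files use mm9, and no peak sequence was read.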

Additional observations from a re-analysis of the deposited data

How the results depend on the processing

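The shares of overlapping peaks depended on what counts as shared. For control peaks the 33.9% became 23.4% with at least 50% of the peak covered by the other list, 43.5% within 500 bp, 69.4% for peaks scored at least 100, 45.9% with that score in both lists, and 42.0% for the 2500 highest peaks of each list. For knockdown peaks the 47.2% became 42.3%, 54.3%, 79.5% and 63.1% under the first 4 of these, and stayed within its interval under the last.
At a score of at least 100 the unmodified RBBP4 share moved to 93.1% (shared control), 91.8% (control-only) and 88.8% (knockdown-only), the H3K4me3 share to 96.4% (control-only) and 94.7% (knockdown-only), and the MTA1 share of the same condition to 44.9% (shared control), 12.4% (control-only), 32.7% (shared knockdown) and 11.2% (knockdown-only). Gene ends then lay at 79.5% of control-only and 87.0% of knockdown-only peaks. With at least 50% of the peak covered, the unmodified RBBP4 share was 89.5% (shared control), 52.6% (control-only) and 89.9% (shared knockdown), and the MTA1 share 13.8% (shared control) and 1.74% (control-only). A gene end lay within 5 kb of 85.7%, 62.7%, 86.0% and 75.4% of shared control, control-only, shared knockdown and knockdown-only peaks, and within 0.2 kb of 58.1%, 24.3%, 48.5% and 43.6%.
The median log2 difference at control-only genes was -0.083 with no filter, -0.14 with a mean FPKM of at least 5 and -0.010 with quantile normalization, where all genes stood at -0.0065. Leaving out 1 clone in turn gave medians of -0.27 to -0.12 at shared, -0.13 to -0.10 at control-only and -0.19 to -0.05 at knockdown-only genes. It gave 5 to 36 calls in the whole table against 4 with all clones, with 36 and 28 without control clones 1 and 2, 9 and 13 without knockdown clones 1 and 2, and 0 to 1 among genes with a peak (Mir7009 without control clone 1, Mir5135 without control clone 2). A lone control clone is assumed to vary like the knockdown clones. One gene with a peak was called with a pseudocount of 0.1 (Mir8114), 1 with no filter (Raet1b) and 1 with a peak anywhere in the locus or within 5 kb (Snord73a), all named after their values were seen. With the clone number as a replicate block limma called 0 genes in the whole table (504 at unadjusted p under 0.05), and medians were -0.24, -0.11 and -0.17 in the shared, control-only and knockdown-only classes. The clone numbers do not pair the samples: deviations of same-numbered clones correlated at -0.25 and -0.0952. The block changed no other call.
Counts for gene lists were repeated under 4 settings chosen after seeing the data. With a score of at least 100 in both lists, 12 G2/M genes had a control and 25 a knockdown peak, and 4 developmental factors had a knockdown peak. At a score of at least 100 the order of knockdown-only and control-only peaks turned round for H3K4me3 (94.7% against 96.4%) and unmodified RBBP4 (88.8% against 91.8%), with intervals that overlap. The order also turned round for H3K27ac, but not for H3K9ac, H3.3 and HDAC2. No median log2 difference changed sign. Only 4 of the gene lists were repeated. The cause of these shifts was not tested.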
